A study of Mus musculus with 384 samples.

Results

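AFX6 is a mouse epiblast stem cell (EpiSC) line kept in activin A, Fgf2 and the tankyrase inhibitor XAV939, and the cells described here are those labelled AFX6 that had at least 3000000 counts summed over all genes. Of 96 sorted AFX6 cells, 66 met this rule, out of 326 such cells among the 384 cells of the series. The last AFX6 cell inside the rule had 3022666 counts and the first outside it had 2831598. The series holds single cells from 4 lines, which were sorted into plates and profiled over full-length transcripts. AFX6 and AF32 carry the label primed, whereas 5ar1 and 5ar2 are labelled formative and are here called formative stem (FS) cell lines. AFX medium held activin A at 20 ng/ml, Fgf2 and XAV939 at 2 µM. AF medium, used for AF32, held the same activin A and Fgf2 without the inhibitor. A3XR medium, used for both FS lines, held activin A at 3 ng/ml, XAV939 at 2 µM and the retinoic acid receptor inverse agonist BMS493 at 1 µM, with no added Fgf2. All 4 lines grew in the same serum-free N2B27 base, and the labels name no genotype, strain or sex. Each line is 1 culture, so cells were not treated as replicates, no test was made between lines, and what belongs to the line, its sex, its medium or its handling cannot be told apart.

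EpiSCs are derived from the post-implantation epiblast and depend on activin, which acts through Smad2 and Smad3, and on Fgf2, which acts through ERK. Tankyrases mark Axin for destruction, so an inhibitor such as XAV939 stabilises Axin and lowers β-catenin-dependent Wnt signalling, a pathway that otherwise draws EpiSCs toward primitive streak fates. The epiblast is an epithelium, with apical tight junctions, E-cadherin junctions and simple keratins. Insig1 and Scd1 belong to lipid metabolism: Insig1 holds the sterol sensor Scap and its SREBP cargo in the endoplasmic reticulum, and Scd1 puts the first double bond into saturated fatty acids.

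The 66 AFX6 cells had 3022666 to 6686007 counts each (median 5069883) and 9000 to 11903 detected genes (median 10328). The median number of detected genes was 10330 in AF32, 11371 in 5ar1 and 11568 in 5ar2. The share of cells that met the count rule was 68.8% in AFX6 (95% exact binomial interval 58.5% to 77.8%) and 83.3% to 93.8% in the other lines. Such intervals, here and with the folds, cover counting error only, since reads copied by PCR without molecular identifiers are not independent molecules. A line's level is given as counts summed over its kept cells per 1000000 (CPM), and a cell was said to hold a gene at 10 CPM or more. The Y-linked genes Ddx3y, Eif2s3y and Uty were at 0.0932 to 0.295 CPM in AFX6, which was 0.248% to 0.365% of the mean of the other lines. None of the 66 cells held any of the 3 genes, which allows a share of up to 4.55% of cells. Levels of this order were therefore not read as expression. AFX6 cell 22 had Pou5f1 at 1.99 CPM whereas the next lowest cell had 179 CPM. Without that cell 50 genes were above and 10 below all 3 other lines, as with it, and 132 genes in place of 126 were called for spread between cells (the rules are given with the results).

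The label was checked against markers of EpiSCs. Pou5f1, the POU factor of all pluripotent states, was at 529 CPM in AFX6, 533 in AF32, 644 in 5ar1 and 490 in 5ar2. It was held by 65 of 66 AFX6 cells, with a median of 507 CPM and a highest cell of 998. Otx2, a homeobox factor of the post-implantation epiblast, was at 118 CPM in AFX6, 110 in AF32, 175 in 5ar1 and 178 in 5ar2. Sox2, the partner of Pou5f1, was low: 4.88 CPM in AFX6 and 12.7 to 17.5 CPM elsewhere, with 10 of 66 AFX6 cells at 10 CPM or more. Fgf5 was at 30.7 CPM in AFX6 and was held by 18 of 66 cells, whereas it was at 44.9 CPM in AF32 and at 229 and 272 CPM in the FS lines. Cdh2, or N-cadherin, was at 13.5 CPM in AFX6 and 36.6 to 43.4 CPM in the other lines. Dnmt3b was at 493 CPM in AFX6 and 616 to 2243 CPM in the other lines. Pou5f1 and Otx2 thus fitted the label, though they did not set AFX6 apart from the FS lines. Sox2, Fgf5 and Cdh2 were low for it, and Dnmt3b too was below every other line. Among factors of the naive epiblast, 7 of 11 measured genes were under 1 CPM in AFX6, and Klf4, Esrrb, Tbx3 and Dppa3 were at 0 to 0.87 CPM. Summed over the list, naive factors reached 30.7 CPM in AFX6, the highest of the 4 lines, and 14.8 to 26.7 CPM in the other lines. Most of that sum came from members not named here. Over AFX6 cells the sum ran from 0 through a median of 4.6 to 409 CPM. The summed level was 9.57 CPM for 7 trophoblast genes (45.2 CPM at most elsewhere) and 4.3 CPM for 8 genes of extraembryonic endoderm, with Gata4, Gata6 and Sox17 at 0. Fibroblast genes summed to 70.7 CPM in AFX6, of which Acta2, smooth muscle actin, made up 41.2 CPM, and to 588 CPM in 5ar2. Early neural genes summed to 139 CPM, mostly Nes at 101 CPM, whereas Sox1 was at 0.26 CPM.

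Lefty1, Tdgf1, Nodal and Nanog lay between AF32 and the FS lines. Tdgf1, the Nodal co-receptor, was at 839 CPM in AFX6, 1398 in AF32, 27.4 in 5ar1 and 36.8 in 5ar2. All 66 AFX6 cells held it, between 67.5 and 2885 CPM. Lefty1, a secreted Nodal inhibitor and target, was at 687 CPM in AFX6, 3818 in AF32 and 4.89 and 10.7 in the FS lines. In AFX6 it ran from 2.7 CPM in the lowest cell through a median of 330 to 3164 CPM, and 57 of 66 cells held it. Nanog was at 159 CPM in AFX6, 400 in AF32 and 28.5 and 33.5 in the FS lines, with 50 of 66 AFX6 cells holding it. Nodal, the ligand, was at 49.0 CPM in AFX6, 94.7 in AF32 and 5.46 and 5.32 in the FS lines. Skil, a Smad corepressor, was at 77.4 CPM in AFX6 and 75.5 in AF32. Of 11 pathway genes with at least 20 CPM in any line, 9 lay between the other lines (any of the 3), against 40.9% of the 8122 genes tested, and 3 were higher than in AF32. The median of the list was −0.19 on the log2 scale of AFX6 over the mean of the other lines, and 1.04 with AF32 left out. AFX6 and AF32 had the same activin dose, and the activin dose of the FS lines was lower. Over AFX6 cells, the ranks of Lefty1 and Nodal had a Spearman's rho of 0.21. This is a description over 66 cells of 1 line that differ in depth.

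The gene set closest to the inhibitor was that of Wnt targets, β-catenin partners and the tankyrases themselves. All 9 members with at least 20 CPM in any line were lower in AFX6 than in AF32, against 57.4% of all genes tested. Several of these differences were small: Ctnnb1 (β-catenin) was at 325 CPM in AFX6 and 419 in AF32, Tnks2 at 113 and 115, and Tnks at 51.2 and 53.7. The wider ones were Nkd1, a feedback inhibitor of the pathway, at 10.2 CPM in AFX6 and 46.4 in AF32, and Tcf7, a partner of β-catenin, at 18.4 and 42.2. In the FS lines, which were also grown with XAV939, Nkd1 was at 9.19 and 7.24 CPM and Tcf7 at 17.3 and 11.2 CPM. Axin2, a common readout of Wnt signalling, was at 2.68 CPM in AFX6 and 2.54 in AF32. The streak factor T (Brachyury) was at 0.382 CPM in AFX6, with 1 of 66 cells holding it, and at 39.1 CPM in AF32. Foxa2, a factor of endoderm, was at 0.00601 CPM in AFX6, which is not read as expression, and at 7.91 CPM in AF32. Fgf8 was at 6.06 CPM in AFX6 and 66.3 in AF32. Eomes did not follow this order, at 6.62 CPM in AFX6, 5.84 in AF32 and 61.3 and 48.2 in the FS lines. Of 4 streak and endoderm genes with at least 20 CPM in any line, 1 was below all 3 other lines and 3 lay between them. Over all genes tested, 34.0% were below and 40.9% between. Between AFX6 and AF32 alone, 145 of 6873 genes (2.11%) were at least 4-fold higher in AFX6 and 120 of 7199 (1.67%) at least 4-fold lower. AF32 is the nearest line in medium, and it also differed from AFX6 in Xist and the Y-linked genes.

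Genes above all 3 other lines were those at least 4-fold over the highest of them, with at least 20 CPM in AFX6. There were 50 such genes among 6873 (0.727%). With AF32 in the place of AFX6 the same rule gave 38 genes, and with 5ar1 or 5ar2 it gave 3 and 4. Those 2 lines shared a medium, and each had the other among its comparators. The leading names were Sfn, Xist, Cldn7, H2-Q2, Klhl14, Scd1, 2610528J11Rik, Ap1m2, Espn, Rab25, Cd68, Cblc, St14, Derl3 and Rgcc. Their folds ran from 55.6 down to 7.56. With the AFX6 cell where each is highest left out, 14 of these 15 genes were still called. Derl3 was not: its level went from 32.7 to 18.6 CPM without cell 18, under the 20 CPM limit, and its fold from 7.92 to 4.49. The called genes lay on 16 chromosomes, with at most 7 on any one (chromosome 4, 1.545% of its tested genes). On the X, 4 of 218 tested genes were called (1.835%), the highest share of any chromosome.

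**Figure D1:**
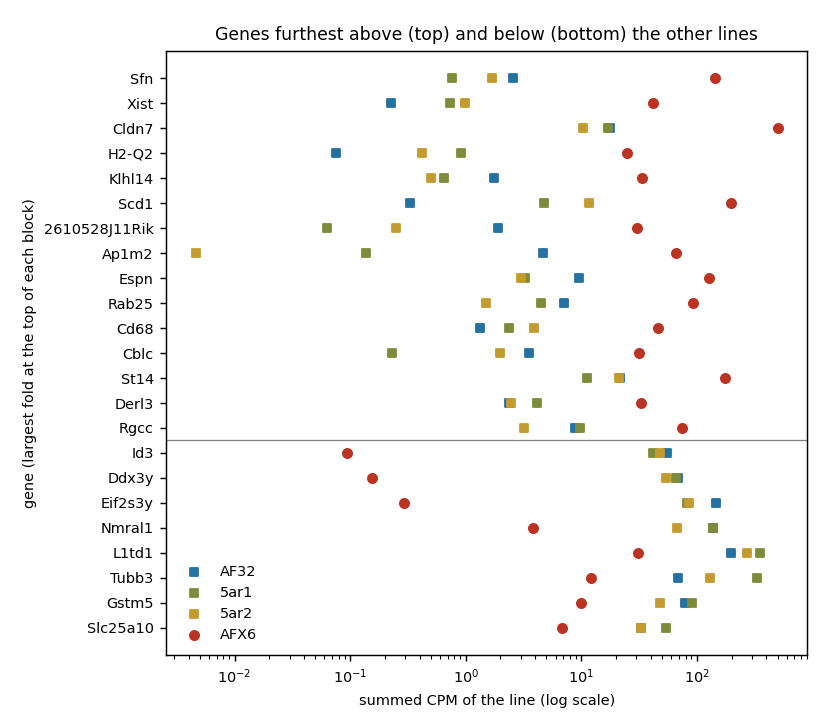
Summed CPM of each line (log axis) for the 15 genes furthest above and the 8 furthest below the other lines, 1 point per line. AFX6 (red circles) lies right of every square in the upper block, by 55.6-fold for Sfn and 7.56-fold for Rgcc, and left of every square in the lower block.

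Several called genes are known from epithelial junctions and cell polarity. Cldn7 (ENSMUSG00000018569, GRCm38 chr11:69964779-69967885, plus strand), a claudin of tight junctions and basolateral membranes, was at 504 CPM in AFX6. It was at 17.7 CPM in AF32, 16.9 in 5ar1 and 10.5 in 5ar2, which makes AFX6 28.5-fold over the highest of them (95% counting interval 27.8 to 29.3). Among AFX6 cells it ran from 0.821 CPM through a median of 488 to 1389 CPM. Of these cells, 64 of 66 held it and 39 lay above the highest of all 260 other cells. In AF32, 5ar1 and 5ar2 it was held by 11, 20 and 14 cells, so the difference lay both in the number of cells and in their level. Cldn6, an embryonic claudin, was at 502 CPM in AFX6 and 83.6 to 98.8 CPM elsewhere (5.08-fold). Rab25, a GTPase of apical recycling endosomes, was at 93.4 CPM against at most 7.14. Ap1m2, the epithelial subunit of the AP-1 clathrin adaptor, was at 66.5 CPM against at most 4.68, with 27 of 66 cells holding it. Espn, an actin bundler of microvilli, was at 129 CPM against at most 9.6, and 59 of 66 cells held it. St14, the membrane protease matriptase, was at 176 CPM against at most 21.7. Crb3 and Llgl2, an apical and a basolateral polarity protein, were at 130 and 153 CPM against at most 25.3 and 30.1. Tjp3 (ZO-3) was at 102 CPM against at most 14.7.

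A list of 58 known epithelial junction, polarity and trafficking genes was drawn up after these values had been seen, so its counts describe the pattern and lend it no support. Of 43 members with at least 20 CPM in any line, 35 were above all 3 other lines at any size, 3 were below all 3 and 14 were called, which is 14 of the 50 called genes. Over all 8122 genes, 25.0% were above and 34.0% below. The median of the list was 1.63 on the log2 scale of AFX6 over the mean of the other lines, beside −0.11 for all genes. The list of adhesion, keratin and EMT genes had 10 of 13 members above and 3 below. Epcam was at 1083 CPM against 362 to 553, Cdh1 (E-cadherin) at 171 against 21.9 to 89.6, and Krt18 at 663 against 79 to 172. The 3 members below all other lines were Vim at 317 CPM against 466 to 1435, Cdh2, and Zeb1, a repressor of E-cadherin, at 12.2 CPM against 14.7 to 34.9. Esrp1, a splicing factor of epithelia, was at 59.4 CPM against 7.32 to 15.9. The summed level of the 58 genes was 7023 CPM in AFX6 and 2556 to 2970 CPM in the other lines, and ranged from 2702 to 13189 CPM over AFX6 cells. Within the line its members hardly moved together: the median rho between pairs was 0.1 over 66 cells, beside 0.026 for all pairs of genes tested. Its summed level had a rho of 0.17 with the number of detected genes.

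**Figure D2:**
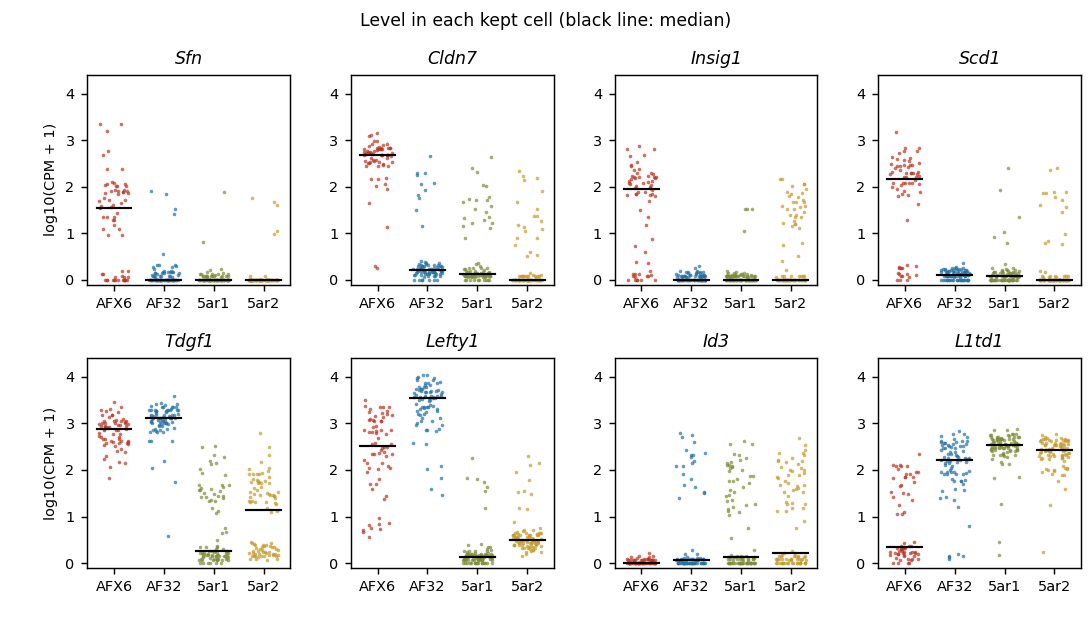
Level of 8 genes in each kept cell as log10(CPM + 1), 1 point per cell, for 66 AFX6, 80 AF32, 90 5ar1 and 90 5ar2 cells (black line, median). Cldn7 is high in nearly every AFX6 cell, Sfn, Insig1 and Scd1 are split between cells near 0 and cells near 100 CPM, and Id3 is near 0 in all AFX6 cells.

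Insig1 and Scd1 were the only called genes of the cholesterol and fatty acid lists. Insig1 (ENSMUSG00000045294, chr5:28071363-28078662, plus strand) was at 131 CPM in AFX6, 0.155 in AF32, 1.32 in 5ar1 and 18.6 in 5ar2, 7.06-fold over the last. It was held by 46 of 66 AFX6 cells, 0 of 80 AF32 cells, 4 of 90 5ar1 cells and 31 of 90 5ar2 cells. Scd1 (ENSMUSG00000037071, chr19:44394455-44407879, minus strand) was at 199 CPM in AFX6, 0.332 in AF32, 4.77 in 5ar1 and 11.8 in 5ar2. That is 16.9-fold over the highest other line (counting interval 16.4 to 17.4), and 50 of 66 AFX6 cells held it. Both genes were present in 39 AFX6 cells, 1 of them in 18 and neither in 9, and their ranks had a rho of 0.37. Scd2, the paralogous desaturase, was lower, at 581 CPM in AFX6 and 888 in AF32. Per the methods, uniquely mapped reads alone were counted, so reads that match both genes equally are not in these values.

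The enzymes around them differed far less. Of 25 cholesterol synthesis genes, 14 were above all 3 other lines, 4 were below, and Insig1 alone was called (median 0.34, log2 over the mean of the others). Hmgcs1, which makes HMG-CoA, was at 1053 CPM in AFX6, 1051 in AF32, 698 in 5ar1 and 423 in 5ar2. The later enzymes Msmo1, Dhcr7 and Sqle were at 688, 667 and 599 CPM in AFX6 against 960, 610 and 419 CPM in AF32. Srebf2, the transcription factor of the pathway, was at 278 CPM in AFX6 and 166 to 200 CPM elsewhere. Of 14 fatty acid synthesis genes, 2 were above and 3 below all other lines, and 12 were lower than in AF32, beside 25.0%, 34.0% and 57.4% of all genes tested. Acly was at 624 CPM in AFX6 and 630 in AF32, Fads1 at 358 and 864, and Elovl5 at 252 and 265.

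Because Insig1 is a textbook target of SREBP, its promoter is printed here, from 250 bases before to 50 bases after the RefSeq start (GRCm38.p6, plus strand, chr5:28071162-28071461). Of the 2 called lipid genes, 1 matched the promoter table, and Scd1 is named only. Capitals mark matches, on either strand, to an E-box (CACGTG, its own reverse complement) and to a CCAAT box, here read on the minus strand.

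Insig1 promoter: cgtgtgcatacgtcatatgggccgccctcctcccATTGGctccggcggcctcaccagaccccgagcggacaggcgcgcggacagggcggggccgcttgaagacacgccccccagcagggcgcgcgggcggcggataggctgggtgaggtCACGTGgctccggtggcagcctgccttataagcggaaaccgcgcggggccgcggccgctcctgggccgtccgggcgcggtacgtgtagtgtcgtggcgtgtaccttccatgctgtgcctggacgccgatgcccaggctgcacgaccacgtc

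The E-box began 101 bases and the CCAAT box 216 bases before the start. No match to the sterol element TCACNCCAC lay in this window. Among 32851 RefSeq promoters of the same length, 7.15% held the E-box, 37.4% a CCAAT box and 1.24% the sterol element. A match describes the letters only.

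Sfn (14-3-3σ, a p53 target that holds cells in G2) had the largest fold. It lies at chr4:133600556-133602168 on the minus strand (ENSMUSG00000047281) and was at 144 CPM in AFX6 and at 2.59, 0.766 and 1.7 CPM in AF32, 5ar1 and 5ar2 (55.6-fold, counting interval 52.1 to 59.4). It ran from 0 through a median of 34.7 to 2233 CPM over AFX6 cells, and 43 of 66 cells held it, against 4, 1 and 4 cells in the other lines. It was not alone among p53 targets. Of 16 tested members of that list, Sfn included, 11 were above all 3 other lines and 0 below, and all 16 were higher than in AF32. The median was 0.96 (log2 over the mean of the others). Over all 8122 genes tested, 25.0% were above, 34.0% below and 3463 higher than in AF32. The summed level of the list was 2451 CPM in AFX6, 2041 in 5ar1, 2244 in 5ar2 and 1003 in AF32, so the FS lines lay nearer to AFX6. Only Sfn was called, so the other members differed modestly. Ccng1 was at 445 CPM against 154 to 265, Cdkn1a, the p21 inhibitor, at 182 against 47.7 to 134, and Bbc3, which encodes the death protein Puma, at 90.5 against 34.9 to 44.7. Mdm2, the ligase that degrades p53, was at 132 CPM against 58.6 to 103. Trp53 itself was at 226 CPM, between AF32 at 166 and the FS lines at 446 and 510, and Bax and Phlda3 also lay between. Over AFX6 cells, the rho of Sfn was 0.02 with Ccng1 and 0.21 with Cdkn1a. It was 0.43 with Cldn6, 0.41 with Krt19, 0.45 with Tpm1 and 0.55 with S100a11, the gene whose ranks were nearest to those of Sfn.

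Lists of the cell cycle split in opposite directions. Of 20 G1/S genes, 16 were below all 3 other lines and 0 above (median −0.63), beside 34.0% and 25.0% of all genes tested. Mcm7, Mcm3, Mcm6 and Mcm2, parts of the replicative helicase, were at 471, 438, 391 and 321 CPM in AFX6 and at 590, 478, 419 and 308 CPM in AF32. Ccnd2 was at 66 CPM against 158 to 275. Of 20 G2/M genes, 15 were above and 0 below (median 0.43). Cdc20, an activator of the anaphase-promoting complex, was at 1066 CPM against 538 to 675, and Ccnb1 at 758 against 524 to 563. No member of either list was called.

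For the lists that follow, the shares over all genes tested were 25.0% above and 34.0% below. Among other lists, 9 of 19 glycolysis and hypoxia genes were above all 3 lines and 0 below. The glucose transporter gene Slc2a3 was at 3795 CPM against 649 to 1980, Gapdh at 13086 against 8800 to 10574, and Aldoa at 8059 against 4107 to 6655. Pkm was at 7518 CPM against 6026 to 7103, and Ldha lay between the others at 6112. Targets of the stress factor Atf4 were mostly lower, with 12 of 16 below all 3 lines and 1 above (median −1.37). Atf4 was at 203 CPM against 366 to 840, Psat1 of serine synthesis at 468 against 658 to 1511, and the amino acid transporter gene Slc7a5 at 47.9 against 164 to 443. Asns was at 673 CPM against 860 to 890. Among immediate early genes, 6 of 13 were above and 2 below. Klf6 was at 136 CPM against 73.8 to 81, whereas Ier2 was at 154 in AFX6 and 266 in AF32. In the ERK feedback list, Dusp6, an ERK phosphatase, was at 417 CPM against 144 to 226, while Spry2 was at 14.7 against 40.2 to 53.3, with 4 of 14 members above and 6 below. In the extracellular matrix list, 5 of 11 were above and 2 below. The laminin gene Lama5 was at 127 CPM against 30.1 to 74.5. Chaperone genes had 7 of 14 members below and 1 above, and apoptosis genes 4 of 12 below and 1 above. The share of apoptosis genes below (33.3%) and of ERK feedback genes above (28.6%) lay near those of all genes.

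**Figure D3:**
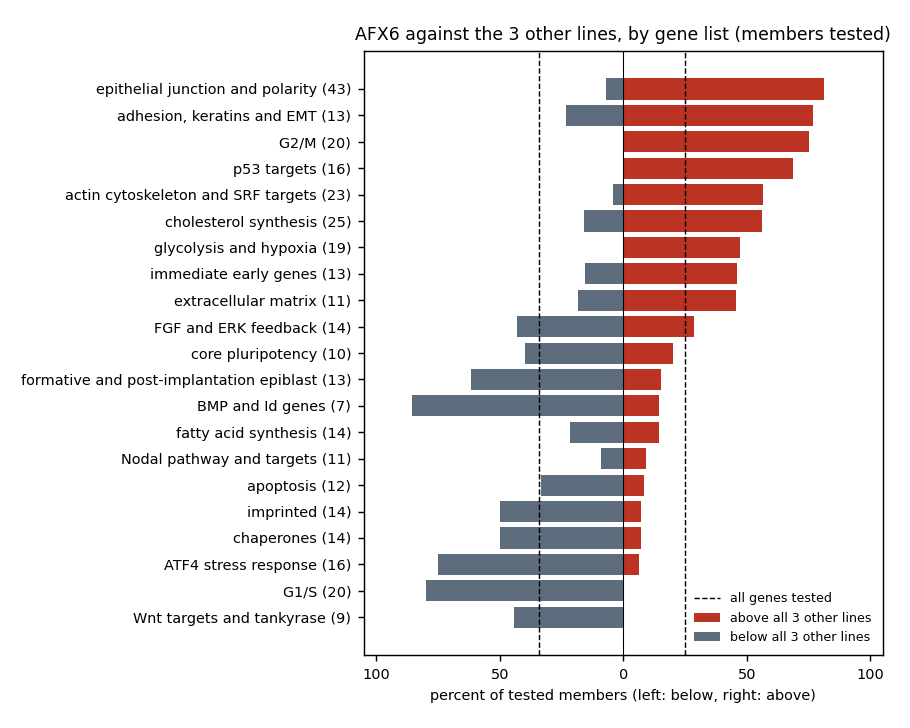
Percent of tested members above (right, red) or below (left, grey) all 3 other lines for each list with at least 7 tested members (number in brackets), with the same over all genes as dashed lines at 25.0% and 34.0%. The epithelial, adhesion, G2/M and p53 lists reach furthest right, and the BMP, G1/S and Atf4 lists furthest left. The epithelial and actin lists were drawn up after the values had been seen, so their place lends no support.

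Genes below all 3 other lines were at least 4-fold under the lowest of them, with at least 20 CPM in that line. There were 10 among 6059 genes (0.165%). These were Id3, Ddx3y, Eif2s3y, Nmral1, L1td1, Tubb3, Gstm5, Slc25a10, Gpr180 and Lcmt2. Id3 (ENSMUSG00000007872, chr4:136143497-136145755), an inhibitor of bHLH factors and a direct target of BMP, was at 0.0932 CPM in AFX6. It was at 55.5 CPM in AF32, 41.6 in 5ar1 and 47.7 in 5ar2. None of the 66 AFX6 cells held it, with a highest cell of 0.631 CPM, whereas 20, 35 and 41 cells of the other lines did. Its level was 0.193% of the mean of the other lines, the same order as the Y-linked genes. The BMP list, with Id3 in it, was also low: 6 of 7 tested members were below all 3 lines and 1 above (median −1.28). The shares over all genes tested were 34.0% and 25.0%. Id1 was at 2.13 CPM against 8.44 to 26.4, Id2 at 15 against 28.9 to 57.6, and the pseudoreceptor gene Bambi at 37.9 against 45.1 to 134. Smad5 was the 1 member above, at 25 CPM against 21.1 to 21.8.

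L1td1, an RNA-binding protein of pluripotent cells, was at 30.9 CPM in AFX6, 197 in AF32, 351 in 5ar1 and 272 in 5ar2. It was held by 27 of 66 AFX6 cells and by 74, 88 and 89 cells of the others. Tubb3, a neuronal tubulin, was at 12.2 CPM against 68.7 to 335, with 11 of 66 cells holding it. Nmral1, an NADPH sensor, was at 3.82 CPM against 66.9 to 138, with 3 of 66 cells holding it. In cells with at least 10000 detected genes the folds of Tubb3, Gstm5 and Slc25a10 were 2.86, 3.59 and 3.78, under the 4-fold limit. By the median of single cells the fold of Tubb3 under AF32 was 1.36. Post-implantation factors were low as a list, with 8 of 13 below all 3 lines and 2 above (median −0.69): the kinase gene Pim2 was at 606 CPM against 1936 to 2173 and Dnmt3a at 151 against 173 to 285, while Etv5 was at 215 against 125 to 210. In core pluripotency, Utf1 was at 1057 CPM in AFX6 against 302 to 799, and the methyltransferase gene Dnmt3b at 493 against 616 to 2243. Imprinted genes had 7 of 14 members below and 1 above, the called Phlda2, at 139 CPM against 14 to 32.4. Beside both lists, 34.0% of all genes tested were below and 25.0% above. Of the imprinted genes with the highest level, Snrpn was at 472 CPM in AFX6 and 338 in AF32, and Grb10 at 221 and 459.

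Xist, the RNA that coats the inactive X, was at 42.1 CPM in AFX6 and 0.228 to 0.989 CPM elsewhere. It was held by 22 of 66 AFX6 cells, with a highest cell of 760 CPM, and 44 cells were under 10 CPM. With Ddx3y and Eif2s3y near 0, AFX6 thus differed from the other 3 lines in its sex-linked genes. Xist overlaps the antisense gene Tsix, and the protocol reads transcripts without strand, so reads over the shared bases cannot be told apart. Of the Xist exon bases, 12.6% were shared with Tsix or other annotated genes.

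Per kilobase of exon, scaled to 1000000 over all genes, the highest levels in AFX6 were Eef1a1 (14606), Mif (9609), CT010467.1 (9584), Ftl1 (9320), Rplp1 (9093), Rps2 (8761), Gapdh (8663), Aldoa (7575), Rpl8 (6834) and Hsp90ab1 (6639). They serve translation (Eef1a1, Rplp1, Rps2, Rpl8), iron storage (Ftl1), glycolysis (Gapdh, Aldoa) and protein folding (Hsp90ab1), while CT010467.1 is annotated as ribosomal RNA. On the same scale, Lefty1 was at 1069, Tdgf1 at 875, Pou5f1 at 643, Sfn at 244, Nanog at 194, Insig1 at 116 and Scd1 at 111. Lefty1 and Tdgf1 thus stood above Sfn, Insig1 and Scd1 on this scale, whereas Nanog lay among them. Mitochondrially encoded genes were not analysed here.

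Variation between AFX6 cells was measured as the squared coefficient of variation of CPM, divided by its median over the 100 genes nearest in mean level. This ratio was 3 or more for 126 of the 6888 genes whose mean reached 20 CPM (1.83%). The same rule called 2.91% of genes in AF32, 2.83% in 5ar1 and 2.11% in 5ar2. Of the 126 genes, 54, 46 and 50 were also called in those lines. That is 42.9%, 36.5% and 39.7% of the AFX6 list. Only 93, 94 and 98 of its genes reached the mean level needed in those lines, and over these the shares were 58.1%, 48.9% and 51.0%. The shared genes made up 25.7%, 23.7% and 35.5% of the own lists of AF32, 5ar1 and 5ar2. The median coefficient of variation over genes was 102% in AFX6 and 69.9% to 97.5% in the others.

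**Figure D4:**
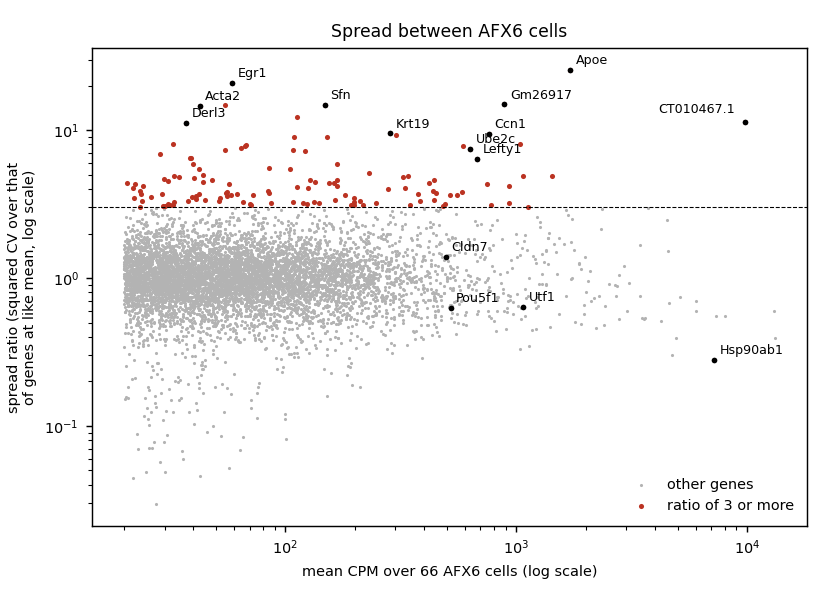
Spread ratio of each gene over 66 AFX6 cells against its mean CPM, both on log axes, with genes at a ratio of 3 or more in red and named genes in black. Apoe, at 25.7, lies highest, Sfn is at 14.8, and Pou5f1 and Utf1 are under 1.

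The 15 largest ratios were those of Apoe, Egr1, Gm26917, Sfn, Gm10800, Acta2, Acta1, CT010467.1, Derl3, Krt19, Ccn1, Csrp1, Dcxr, Serpine2 and Spp1, from 25.7 to 8.09. Apoe, a lipoprotein component, was held by all 66 cells, from 173 CPM through a median of 1081 to 25786 CPM in cell 87, which alone gave 22.7% of its signal. The quartiles of Apoe were 775 and 1621 CPM, so its ratio rested largely on cell 87. Over all settings tried that ratio ran from 3.39 to 56.4. Cell 87 was also the highest for Dcxr and Serpine2, with 28.3% and 24.5% of their signal. Egr1, an immediate early transcription factor, was held by 15 cells with a highest cell of 1783 CPM, which gave 45.9% of its signal. Acta2 drew 55.9% of its signal from cell 54, and Derl3, a factor of protein export from the endoplasmic reticulum, 53.4% from cell 18. For such genes about 1 cell set the ratio. Ccn1, a matricellular target of YAP, was spread more evenly: 58 cells held it, with a median of 335 CPM and 8.45% of the signal in the highest cell. Its ratio was 9.45 in AFX6 and higher in the other lines, at 50.2 in AF32, 14.4 in 5ar1 and 17.2 in 5ar2. Among the markers, Lefty1 had a ratio of 6.41, Scd1 3.28, Insig1 2.72, Tdgf1 2.46 and Nanog 2.37. By contrast Pou5f1 and Utf1 were at 0.63 and 0.64. Without the highest cell of each gene 78 genes were called, of which 70 were among the 126.

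Variable genes fell into groups over cells. In the G2/M list 13 of 20 genes were called variable, against 1.83% of all genes, and the median rho between its members was 0.65. Ube2c, Aurka, Cdc20 and Ccnb1 had pairwise rho of 0.8 to 0.85. Ube2c, the ubiquitin-conjugating enzyme of mitotic exit, ran from 1.52 through a median of 385 to 5022 CPM. Its spread ratio was 7.48 in AFX6, 10.9 in AF32, 7.37 in 5ar1 and 6.62 in 5ar2. A set of 25 actin and SRF target genes, drawn up after these values had been seen, had 11 of 22 tested members called variable and a median rho of 0.33. The tropomyosin gene Tpm1 was held by all 66 cells, from 118 through a median of 1116 to 4828 CPM, and Csrp1 and Cnn2 had a rho of 0.56. The spread ratio of Tpm1 was 4.87 in AFX6, 14.1 in AF32, 6.29 in 5ar1 and 21.6 in 5ar2. Such spread was thus not particular to AFX6. Krt8 and Krt19 had a rho of 0.55 with each other. Within the p53 list 6 of 16 genes were called variable: Sfn, Cdkn1a, Ccng1, Trp53inp1, Perp and Btg2. Dcxr, a carbonyl reductase, followed Ccng1 and Cdkn1a with rho of 0.6 and 0.54, and Ass1 of arginine synthesis with 0.55. These correlations are over 66 cells of 1 line whose depth differs, and the plate of each cell is not given in the labels. In the 45 cells with at least 10000 detected genes the median rho was 0.68 for G2/M, 0.38 for the actin set and 0.27 for the p53 list.

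**Figure D5:**
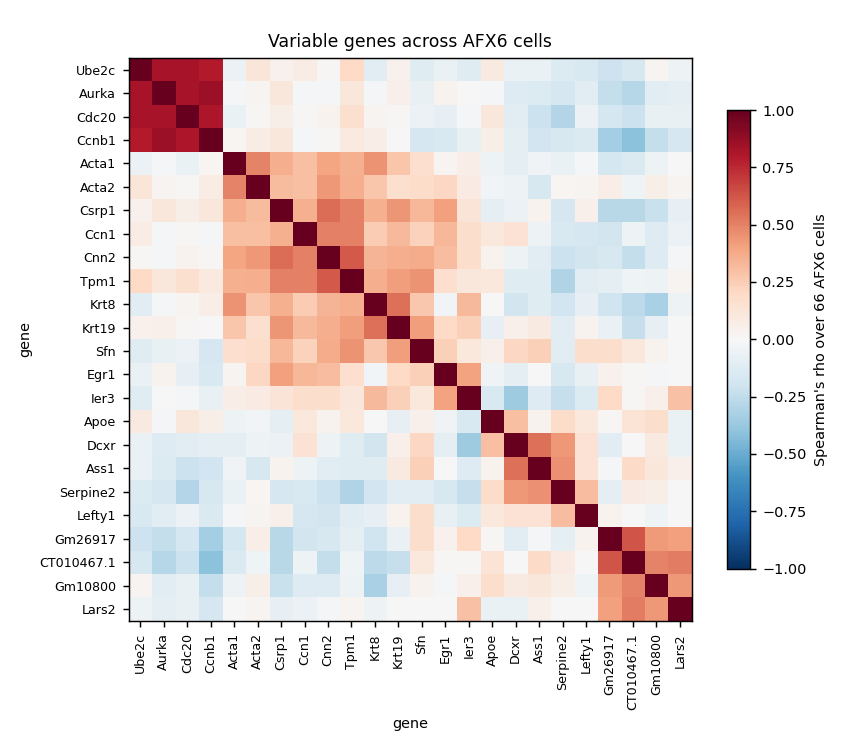
Spearman's rho between 24 genes over 66 AFX6 cells (colour scale from −1 to 1), ordered by group and chosen after their values were seen. Ube2c, Aurka, Cdc20 and Ccnb1 form the block of highest rho (0.8 to 0.85), the actin and keratin genes a weaker block, and Gm26917, CT010467.1, Gm10800 and Lars2 another.

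A further group was higher in cells with fewer detected genes. Gm26917, CT010467.1, Gm10800 and Lars2, grouped here after their values were seen, had rho of 0.41 to 0.63 with each other. Their rho with the number of detected genes ran from −0.52 to −0.29, whereas the median over all 126 called genes was 0.18. They did not stand alone: the nearest gene in rank was Rps12 for CT010467.1 (0.70) and Rpl13 for Gm10800 (0.63). Rplp1, Mif and Rps2 had rho of −0.64, −0.63 and −0.51 with the number of detected genes, whereas Aldoa and Hsp90ab1 were at 0.24 and 0.21. CT010467.1 shared 73.9% of its exon bases with other annotated genes, AY036118 and Gm42418, so its level is uncertain. At the other end, the lowest ratios belonged to Gm6136, Rpsa-ps10, Gm15500, Gm4366 and AC133509.1 (0.0294 to 0.0486). All 5 are annotated as pseudogenes, for which uniquely mapped reads alone were counted. Among abundant coding genes, Hsp90ab1 had a ratio of 0.28 and a coefficient of variation of 19.1%.

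Some cells held the highest value for many variable genes. Cell 70 did so for 18 of the 126 genes, among them Ube2c, Aurka and Ccnb1. Cell 87 did so for 14, among them Apoe, Dcxr, Serpine2 and Ass1, with Sfn at 1589 CPM and Nanog at 0.816 CPM. Cell 18 did so for 13, among them Gm26917, Derl3, Ddit3, Trib3 and Xist. These cells had 9478 to 10624 detected genes. Without cells 18, 22, 70 and 87, 106 genes were called variable, of which 90 were among the 126. The same removal left 49 genes above all 3 other lines and 15 below, of which 45 and 10 were among those called with all 66 cells.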

How the data were processed

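Single cells of 4 mouse lines were profiled by Smart-seq2, which reads whole transcripts without strand or molecular identifiers. The authors deposited whole-number counts per gene, made with STAR 2.7.3a on GRCm38.p6 and featureCounts 2.0.0 from uniquely mapped reads. They also deposited sctransform values rounded to whole numbers (unit here: score), which served as an alternative alone. Counts of kept cells were summed per line and scaled to CPM, with no pseudocount in folds. Of 31617 genes, 31565 matched GENCODE M21, which gave exon lengths. A gene was called at 4-fold with 20 CPM, and for spread at a ratio of 3. Each line is 1 sample, so no test was run. Scripts (Python 3.11.15, pandas 2.3.3, scipy 1.17.1) were tested on simulated data. TMM (edgeR 4.0.16) and DESeq2 1.42.0 size factors, other limits, cell filters, per-cell medians and leaving out a line or cell were alternatives. Fold intervals are exact conditional Poisson intervals.

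The members and lists were chosen with earlier results of these data known. Named genes were the 6 given markers, the 15 furthest above and 8 furthest below, the 15 most and 5 least variable, the 10 of highest level per length, and called list members with up to 4 others of highest level. Other genes, such as Spry2, Zeb1, Ccnd2, Lama5, Bbc3 and Esrp1, and the epithelial and actin lists, were chosen after their values were seen. Of the list genes 18 were not in the table used here. A result that needs a withheld item is not reported here.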

Additional observations from a re-analysis of the deposited data

Results flagged for a closer look

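The 30 AFX6 cells under 3000000 counts entered no comparison. The left-out cells of AF32, 5ar1 and 5ar2 numbered only 16, 6 and 6, and the lowest left-out AFX6 cell had 18471 counts. Of the 15 genes furthest above the other lines and Insig1, 14 were higher in the left-out AFX6 cells, summed, than in the left-out cells of every other line. Scd1 was at 109.4 CPM in them and at most 26.1 CPM in the left-out cells elsewhere, with 12 of 30 AFX6 cells at 10 CPM or more. Sfn was at 109.1 CPM against at most 2.22 CPM, and 3 of 30 cells reached 10 CPM. Cldn7 was at 401.1 CPM against at most 19.4 CPM, with 23 of 30 cells at 10 CPM or more. Xist was at 184.1 CPM against at most 0.208 CPM. The epithelial genes Espn, Rab25, St14 and Ap1m2 were at 147.5, 132.5, 74.8 and 40.45 CPM. Derl3, Cblc, Cd68 and H2-Q2 were at 41.38, 34.31, 27.52 and 23.4 CPM, and 2610528J11Rik and Klhl14 at 17.97 and 12.72 CPM. Several of these sums rested on few cells. Of the 30 AFX6 cells, 2 reached 10 CPM for Klhl14 and for Cblc, and 3 for H2-Q2 and for Ap1m2. For Derl3 and 2610528J11Rik 4 cells did so, and for Cd68 5 cells. Insig1, at 45.4 CPM, was below the 100.6 CPM of the left-out 5ar2 cells, and Rgcc, at 20.0 CPM, below 25.3 CPM there. Among the genes furthest below, Id3 was at 2.18 CPM in the left-out AFX6 cells, above the 1.56 CPM of the left-out AF32 cells. Of the left-out AFX6 cells, 1 of 30 reached 10 CPM for Id3. Nmral1, at 13.7 CPM, was above the 7.36 CPM of the left-out 5ar2 cells. Ddx3y, Eif2s3y, L1td1, Tubb3, Gstm5 and Slc25a10 were lower than in the left-out cells of every other line. For Tubb3 the gap was small, at 26.9 CPM in AFX6 and 28.7 CPM in AF32. These differences were not tested.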

How the results depend on the processing

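The 50 genes above all 3 other lines became 22 with a minimum of 50 CPM, 303 with 1 CPM, 218 at 2-fold and 123 without AF32. The 10 genes below became 5 with a minimum of 50 CPM, 281 with 1 CPM, 147 at 2-fold, 61 without AF32, 21 without 5ar2, 236 by the median of single cells and 17 in cells with at least 10000 detected genes, a filter chosen after seeing the data. The 126 variable genes became 392 with a minimum mean of 1 CPM, 78 without the highest cell of each gene, 55 by the variance of log2(CPM + 1) and 34 at a ratio of 5. By the median of single cells 68 genes were above, of which 22 were among the 50. TMM and DESeq2 size factors each gave 52 above and 10 below, and the deposited normalized values 51 and 11. The median log2 of the Nodal list was 1.045 without AF32, the 1 value that changed sign. The causes were not tested beyond what each limit fixes by its construction. Leaving out cells 18, 22, 70 and 87, singly or together, or the highest cell of a named gene, was also chosen after seeing the data. No paired analysis was possible because replicate numbers only name cells and no result comes from a test. AFX6 is the only line in its medium, as is AF32 in its own, which limits every comparison between lines.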
